A study of Mus musculus with 4 samples.

Results

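CD8 T cells that carry transcripts of Ccl5 and Nkg7 were described in the adventitia of the aorta, the outer connective tissue layer of the vessel wall. Members were cells with at least 200 detected genes and at most 10% mitochondrial UMIs that met 5 cuts on unique molecular identifiers (UMIs, counts of single captured RNA molecules). Cd3d, Cd3e and Cd3g together had at least 2 UMIs, Cd8a and Cd8b1 at least 1, and Ccl5 and Nkg7 at least 2. Cd79a and Ms4a1 of B cells were at 0 and the complement genes C1qa, C1qb and C1qc of macrophages at 2 or fewer. Of 8497 adventitial cells 309 met these cuts, or 3.64% (3.25 to 4.06), out of 14831 cells in the whole study. All intervals are 95% exact Clopper-Pearson intervals for shares and exact Poisson intervals for levels and exact conditional binomial intervals for ratios, and they cover counting error only, not the spread between animals.

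CD8 T cells recognise peptides on MHC class I and can kill the cells that present them. After activation they leave the naive state, in which Ccr7 and Lef1 are expressed and the cells circulate through lymph nodes, and become effector or memory cells that store granzymes and release chemokines such as Ccl5. Memory CD8 T cells are known to take up receptors first described on natural killer cells, and granzyme K with the T-box factor Eomes marks a state of CD8 T cells that has been described in tissues of old mice.

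The study sequenced single cells of C57BL/6 mice in 4 libraries: aged adventitia, 2 libraries of the intima of the aged descending aorta pooled from 6 mice each, and 1 library of the intima of the young aortic arch pooled from 8 mice. The labels give no number of mice for the adventitia, no sex and no age beyond aged and young. They repeat for the adventitia the intimal protocol, in which perfused aortas were treated with trypsin, the endothelium was scraped off with actinomycin D and red cells were lysed. With 1 adventitial library no test between cell groups was possible, so all differences are descriptions of this library and carry no p-value. The 4 libraries shared 4 to 31 barcodes per pair, and no shared barcode belonged to a member.

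The members were set against 3 other groups of cells from the same library. The first was 73 CD8 T cells that passed the same CD3, CD8, B cell and C1q cuts with 0 UMIs of Ccl5 and Nkg7. The others were 90 CD4 T cells, with a Cd4 UMI and no Cd8a or Cd8b1, and 41 natural killer cells, with Ncr1 or Klrb1c, at least 2 UMIs of Ccl5 and Nkg7 and no CD3 UMI. Median depth was 2224 UMIs per member, against 1997 in CD8 T cells without Ccl5 and Nkg7, 2030.5 in CD4 T cells and 1885 in natural killer cells. Summed UMIs were 785960 in members, against 168232 in CD8 T cells without Ccl5 and Nkg7, 238196 in CD4 T cells and 89814 in natural killer cells, so levels in natural killer cells rest on the fewest counts. Levels are given as CPM, the UMIs of a gene per 1000000 UMIs summed over the cells of a group.

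The genes of the cuts describe what the rule chose. Ccl5, a chemokine that draws T cells and monocytes (GRCm38 chromosome 11, 83525778 to 83530518), had 9422 UMIs and a level of 11990 CPM. It ranged over members from 0 to 112 UMIs with a median of 27. Nkg7, a granule protein of cytotoxic lymphocytes (chromosome 7, 43437073 to 43438249), had 1381 UMIs and 1757 CPM, and it ranged from 0 to 23 with a median of 4. Both genes were seen in 279 members (90.3%, 86.4 to 93.3), Ccl5 alone in 13 and Nkg7 alone in 17. Cd8b1, the beta chain of CD8, was seen in 259 members (83.8%, 79.2 to 87.7), and 50 members (16.2%, 12.2 to 20.8) had Cd8a alone. A Cd4 UMI was found in 2 members.

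Genes outside the rule, some of them markers named for these cells, were described next. Klrk1, which encodes the activating receptor NKG2D (chromosome 6, 129610323 to 129623864), had 163 UMIs in 91 members, with a median of 0 and at most 7 per cell. Ly6c2, a surface protein of memory CD8 T cells and monocytes (chromosome 15, 75108158 to 75111970), had 433 UMIs in 151 members, with at most 12 per cell. Both markers were therefore found in some members and not in others, at 29.4% (24.4 to 34.9) and 48.9% (43.2 to 54.6). In B cells, chosen on Cd79a and Ms4a1 with no CD3 UMI and no C1q cut, the median depth was 2364. A Klrk1 UMI was found in 0.939% of them and a Ly6c2 UMI in 9.71%. That group had Jchain at 8890 CPM, so plasma cells were not excluded, and whether its Ly6c2 was all background was not tested. At least 1 of 7 effector genes (Gzmk, Klrk1, Klrd1, Ly6c2, Eomes, Xcl1 and Ifng) was found in 266 members (86.1%, 81.7 to 89.7), at least 3 of them in 95 (30.7%, 25.6 to 36.2), and none in 43. These shares were not set beside other cells, so they describe the members and do not test the label. In CD8 T cells without Ccl5 and Nkg7, Ly6c2 was found in 15.1% of cells, Klrd1 had 17 UMIs and Klrk1 had 0.

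Of 12 natural killer cell markers 9 were detected in members, at a summed level of 738 CPM, against 529 CPM in CD8 T cells without Ccl5 and Nkg7, 646.5 CPM in CD4 T cells, 671 CPM in B cells and 7337 CPM in natural killer cells. Ncr1 and Klrb1c, on which natural killer cells were chosen, had UMIs in 3 members each, Klra8 had 1 UMI, and Klra4, Klri2 and Klrb1b had none. Other markers of the list were present in members, with 160 UMIs of Tyrobp, 151 of Fcer1g, 120 of Txk, 80 of Eomes, 44 of Klre1 in 28 cells and 18 of Klra7 in 13 cells. The thymocyte genes Rag1, Rag2, Ptcra and Arpp21 had no UMI in members, and neither had Sox13 and Il17a of gamma delta T cells. For a gene with no UMI among 309 members the interval allows a share of up to 1.19% of cells with a UMI at this depth, which does not limit the share of cells that express it. The constant region genes of the T cell receptor were not analysed here.

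Promoter sequence is shown for 3 genes of the members whose windows held a T-box core motif, since Eomes, a T-box factor, was among the genes that set the members apart from other CD8 T cells. The windows run from 250 bases before to 50 bases after the RefSeq start site on GRCm38.p6, in the direction of transcription, and capitals mark GGTGTGA, searched on both strands. The motif was in 7 of the 35 listed effector genes that had a window (20.0%, Cd160, Ctsc, Gzmk, Gzmm, Nkg7, Rab27a and Xcl1), out of 42 listed, and in 3.98% of all 32851 windows and 4.60% of 27025 genes. The windows are chr7:43436888-43437187 on the + strand for Nkg7, chr13:113180916-113181215 on the - strand for Gzmk and chr1:164935473-164935772 on the - strand for Xcl1. The motif starts at position -13 relative to the start site in Nkg7, at -75 in Gzmk and at -188 in Xcl1. These positions hold for the RefSeq start sites, which lie inside the gene spans printed for these genes. The Gzmk window lies wholly within its gene span, 113171608 to 113225908, and the Nkg7 motif lies within the span of Nkg7. A match of letters is not a bound site.
Nkg7: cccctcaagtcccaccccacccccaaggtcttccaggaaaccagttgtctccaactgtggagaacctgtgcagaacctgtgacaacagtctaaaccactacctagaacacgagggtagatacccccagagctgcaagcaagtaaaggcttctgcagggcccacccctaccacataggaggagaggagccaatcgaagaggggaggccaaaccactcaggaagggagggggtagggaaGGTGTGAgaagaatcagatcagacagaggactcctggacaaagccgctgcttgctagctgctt
Gzmk: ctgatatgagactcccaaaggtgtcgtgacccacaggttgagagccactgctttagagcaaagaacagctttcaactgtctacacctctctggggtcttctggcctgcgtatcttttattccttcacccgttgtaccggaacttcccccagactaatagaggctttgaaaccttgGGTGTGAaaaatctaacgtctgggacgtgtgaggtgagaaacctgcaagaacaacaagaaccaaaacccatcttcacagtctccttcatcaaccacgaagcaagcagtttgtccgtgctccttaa
Xcl1: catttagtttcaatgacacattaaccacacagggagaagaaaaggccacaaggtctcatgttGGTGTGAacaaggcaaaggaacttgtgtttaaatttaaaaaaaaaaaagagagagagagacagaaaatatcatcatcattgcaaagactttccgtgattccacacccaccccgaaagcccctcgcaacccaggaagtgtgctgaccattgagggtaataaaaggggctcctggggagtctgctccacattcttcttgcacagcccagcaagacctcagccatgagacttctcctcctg

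The sums of Ccl5 and Nkg7 UMIs were read across all 430 adventitial CD8 T cells. The 2 genes together ranged over members from 2 to 120 UMIs with a median of 31, and 267 members (86.4%) had at least 10. Below that, 22 members had 2 UMIs, 3 had 3, none had 4, 8 had 5, 4 had 6, 2 had 7, 2 had 8 and 1 had 9. The empty value at 4 lay between small counts, and a separation into cell groups was not tested. Members were 71.9% (67.4 to 76.1) of the CD8 T cells, against 66.0% at a cut of 4 UMIs and 62.1% at a cut of 10. The background of the library reached the cut: 2 or more UMIs of Ccl5 and Nkg7 were found in 4.76% of 1597 B cells and 4.64% of 1877 fibroblasts, and 4 or more in 0.564% of B cells and 0.746% of fibroblasts.

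The 25 members with 2 or 3 UMIs, just inside the cut, had no UMI of Gzmk, Klrk1 or Eomes, at a median depth of 2446. The 48 CD8 T cells with 1 UMI, just outside, had no UMI of Gzmk, 2 of Klrk1 and 2 of Eomes at a median depth of 2178. Ccr7, the receptor for entry into lymph nodes, stood at 409 CPM just inside and 490 CPM just outside. Ly6c2 stood at 102 CPM just inside and 155 CPM just outside. Members at the edge of the cut thus had levels of these genes near those of the cells left out, while the 30 members with 5 to 14 UMIs had 842 CPM of Ly6c2, 190.0 CPM of Ccr7 and 7 UMIs of Gzmk. Klrk1 was at 81.5 CPM in members with 5 to 14 UMIs, 295 CPM with 15 to 29, 229 CPM with 30 to 49 and 212 CPM with 50 or more.

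**Figure D1:**
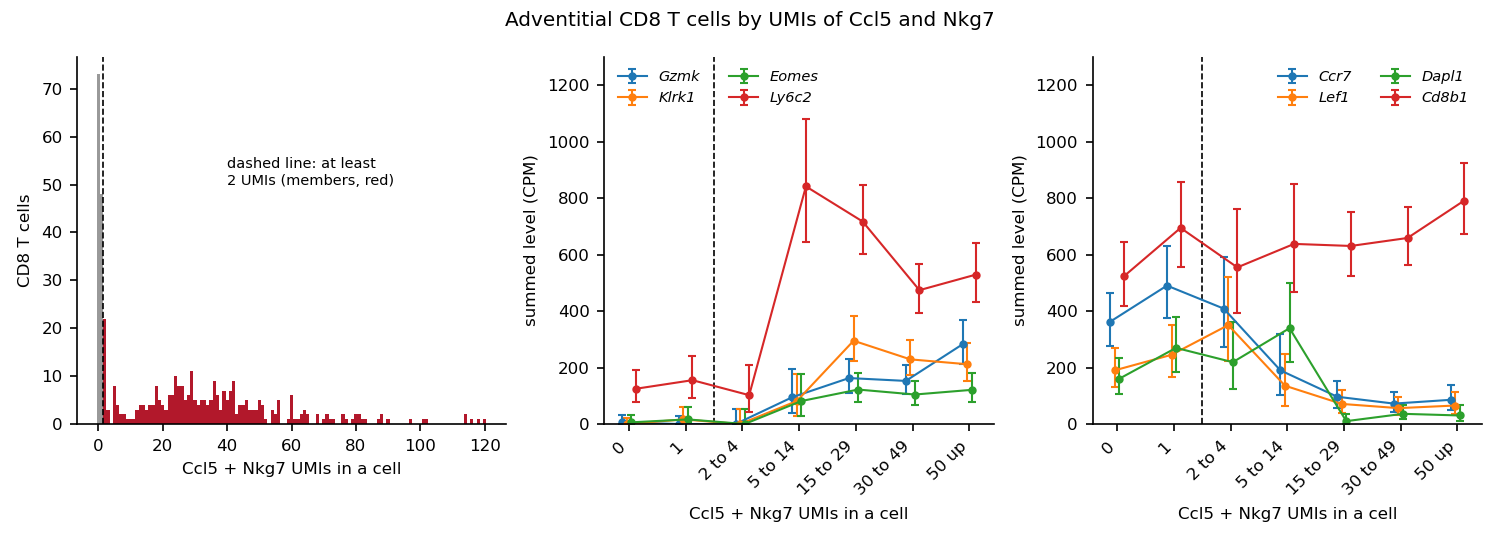
Left, number of adventitial CD8 T cells (y axis) at each sum of Ccl5 and Nkg7 UMIs (x axis), with members in red. Middle and right, summed level in CPM with 95% Poisson intervals in 7 bins of that sum. Gzmk, Klrk1 and Eomes were at 0 in the bin from 2 to 4 UMIs, where Ccr7 was at 409 CPM.

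Against CD8 T cells without Ccl5 and Nkg7, the members carried more transcripts of granzyme K, chemokines, interferon gamma and killer-cell lectin-like receptors and fewer of lymph node homing genes. Of 3443 genes with at least 30 UMIs over both groups, 278 were at least 2-fold higher in members (8.07%) and 121 at least 2-fold lower (3.51%), with a median log2 ratio of 0.03. Gzmk, a granule protease (chromosome 13, 113171608 to 113225908), had 133 UMIs in 87 members, at most 5 in a cell, against 1 UMI in the other CD8 T cells. That was 169 CPM against 5.94 CPM, a log2 ratio of 4.83 (2.33 to 10.15). Gzmk had the largest ratio among the tested genes with a UMI in both groups, the genes of the cuts left out. Cells were chosen on Ccl5 and Nkg7, so genes that go with these in CD8 T cells had to differ in the same direction. Members held 785960 UMIs against 168232 in the other CD8 T cells. A gene could thus reach 30 UMIs through members alone, and less readily when it was low in members. This tilts the tallies of higher and lower genes, here, in the lists and in the other comparisons. A tally with none lower was thus partly set by that filter.

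Of the 5 markers named for these cells 4 were past 2-fold, among them Ccl5 and Nkg7, on which the groups were cut. Ly6c2 was at 551 CPM in members against 125 CPM (log2 ratio 2.14, 1.51 to 2.85), and in B cells it stood at 166 CPM.

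Of the 16 listed genes of cytotoxic granules 12 had enough counts, and 9 of them were past 2-fold higher and none lower, with a median log2 ratio of 1.94. Gzmk, Fasl, Gzmm, Gzma and Gzmb had at most 1 UMI in the other CD8 T cells and so passed the filter through members. Ctsw, a cathepsin of cytotoxic lymphocytes, was at 140.0 CPM in members against 35.7 CPM (log2 ratio 1.97, 0.80 to 3.45). Cst7, an inhibitor of cathepsins, was at 151 CPM against 53.5 CPM (interval of the log2 ratio 0.53 to 2.66). Fasl, the death ligand, had 40 UMIs against 1 (3.10, 0.54 to 8.44), and Gzmm had 38 against 1 (3.02, 0.46 to 8.36). Serpinb9, which inhibits granzyme B, had a log2 ratio of 1.91 and Serpinb6b one of 2.32. Gzma and Gzmb had 61 and 41 UMIs in members and 0 in the other CD8 T cells. With a floor of 3 counts over the other group, Gzma was at least 4.35-fold and Gzmb at least 2.92-fold higher. Not past 2-fold were Srgn, the granule proteoglycan (-0.38), Ctsc, which activates granzymes (-0.90), and Lamp1 (-0.36).

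The granule set was incomplete at this depth. Prf1, which encodes the pore protein perforin, had 2 UMIs in all 309 members (0.647% of cells, 0.0785 to 2.32), against 6 UMIs in 41 natural killer cells. Gzmb was seen in 25 members (8.09%) and Gzma in 13 (4.21%). Gzmc had no UMI.

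Chemokine and cytokine genes were higher as well: 4 of the 5 that passed the count filter were past 2-fold higher, with a median log2 ratio of 2.05. Xcl1, a chemokine for cross-presenting dendritic cells (chromosome 1, 164931644 to 164935527), had 98 UMIs in 60 members, against 1 UMI (log2 ratio 4.39, 1.88 to 9.71). Ifng, the macrophage-activating cytokine, had 65 UMIs in 44 members, against 1 (interval 1.27 to 9.12). Ccl4, a chemokine for monocytes and T cells, was at 319 CPM in members against 77.3 CPM (2.05, 1.25 to 2.98), and Ccl3 had a log2 ratio of 1.62 with an interval that reached -0.03. Il16 was at 0.31. Tnf had 13 UMIs in members, Il2 had 2, and Csf2 had none.

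Natural killer receptor genes were also higher. Klrk1 had 163 UMIs in members and 0 in the other CD8 T cells, so it was at least 11.6-fold higher at the floor of 3 counts. Klrc2, an activating partner of CD94, had 46 UMIs against 1 (log2 ratio 3.30, 0.75 to 8.63), and Klrc1, the inhibitory receptor NKG2A, had 43 against 0, at least 3.07-fold higher. With the C1q genes at 0, which left 96 members and 27 other CD8 T cells, the log2 ratio of Klrc2 was -0.0171. Klrd1, which encodes CD94, was at 181 CPM against 101 CPM (0.84, 0.11 to 1.66), and Hcst, the adaptor of NKG2D, was at 0.97. In all, 3 of the 5 receptor genes with enough counts were past 2-fold and none was lower, with a median of 1.62.

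Transcription and survival genes included Eomes, a T-box factor of effector and memory cells (chromosome 9, 118478212 to 118486132), with 80 UMIs in 57 members against 1 (log2 ratio 4.10, 1.58 to 9.42). Bcl2, which protects from cell death, was at 391 CPM in members against 119 CPM (1.72, 1.06 to 2.45). Il2rb, the beta chain shared by the receptors for IL-2 and IL-15, was at 112 CPM against 47.6 CPM (1.24, 0.19 to 2.49). These were the 3 of 10 factor genes past 2-fold, with none lower and a median of 0.71. Tbx21, which encodes T-bet, had 15 UMIs in members and 0 in the other CD8 T cells. Id2 was at 0.78, Runx3 at 0.65 and Id3 at -0.82.

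Genes of the lymph node programme were lower in part. Of 12 such genes with enough counts 4 were past 2-fold lower and none higher, with a median log2 ratio of -0.57. Ccr7 was at 122 CPM in members against 363 CPM (-1.57, -2.05 to -1.08), and Satb1, a chromatin organiser of T cells, was at 204 CPM against 464 CPM (-1.19, -1.59 to -0.78). Dapl1 (-1.15) and Actn1 (-1.17) were the others. Lef1 was at 95.4 CPM in members against 190 CPM (interval -1.61 to -0.35), just short of 2-fold. The remaining genes of the list included Tcf7 at -0.54, the IL-7 receptor gene Il7r at 0.08, Klf2 at 0.29 and Cd27 at 0.69. The interval of Il7r included 0, which that of Ccr7 did not.

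Trafficking genes past 2-fold higher were 5 of 10, with none lower and a median of 0.99. Itgal, the integrin chain of LFA-1, had 62 UMIs against 2 (2.73, 0.82 to 5.81). Selplg, the selectin ligand PSGL-1, was at 405 CPM in members against 137 CPM (1.57, 0.95 to 2.24). The others were the chemokine receptors Cxcr3 (1.54) and Cxcr4 (1.61) and the hyaluronan receptor Cd44 (1.08, with an interval that reached -0.04). Of 5 tissue residency genes with enough counts 2 were higher and none lower, with a median of 0.51: the chemokine receptor Cxcr6, with 52 UMIs against 2 (2.48, 0.55 to 5.56), and Rgs1 (1.82, 0.40 to 3.74). Other genes of resident CD8 T cells were scarce in members, with 2 UMIs of Itgae, 6 of Itga1 and 1 of Zfp683. Genes of circulating late effector cells were scarce too, with 9 UMIs of Klrg1 in 7 cells, 3 of Cx3cr1 and 2 of S1pr5.

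Of the listed inhibitory and exhaustion genes 4 of 5 tested were higher in members, with none lower and a median of 1.40. Pdcd1 was the only inhibitory receptor gene among the 4. Pdcd1, which encodes PD-1, had 37 UMIs in 31 members and 0 in the other CD8 T cells, at least 2.64-fold higher. Tox, a factor of chronically stimulated T cells, had 67 UMIs against 3 (2.26, 0.65 to 4.57), Nr4a2 was at 304 CPM against 113 CPM (1.43, 0.75 to 2.19), and Maf was at 1.20 with an interval that reached -0.26. Ctla4, the other gene tested, was at 52.2 CPM in members against 53.5 CPM. Lag3 was short of the count filter, with 18 UMIs against 5, at 22.9 CPM in members against 29.7 CPM. Tigit had 3 UMIs in members and Havcr2 had 1. Of 13 genes of T cell receptor signalling 4 were higher and none lower, with a median of 0.82: Zap70 (1.80), Lcp2 (1.15, with an interval that included 0), Sh2d2a (1.93) and Sh2d1a (1.68).

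Other lists had few genes past 2-fold. No immediate early gene out of 10 passed 2-fold (median -0.24) and no MHC class I gene out of 8 (0.05). Among 13 genes of the S100 and cytoskeleton list S100a4 was higher (1.57), with a median of 0.35, and among 6 interferon genes Irf7 (1.58, with an interval that included 0), with a median of -0.03. Of 4 cell cycle genes with enough counts Stmn1 (1.30) and Hmgb2 (1.19) were higher, with a median of 0.46. The members held 77.2% of their 92 Stmn1 UMIs and 48.7% of their 341 Hmgb2 UMIs in 10 cells each, and 7 members had UMIs of at least 2 of the mitotic genes Mki67, Top2a and Birc5.

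The remaining genes among the 15 with the largest ratios were Ctla2a, a cysteine protease inhibitor of activated T cells, at 490 CPM in members against 65.4 CPM (2.91, 2.05 to 3.92), and Serpina3g, Fgl2, Lrrfip1, Snrnp40, Nudt5 and Fnbp1, with 1 or 2 UMIs in the other group. With C1q at 0 the log2 ratio turned to -0.13 for Fgl2 and Snrnp40, -0.26 for Nudt5 and -0.55 for Fnbp1. Among the 15 with the largest negative ratios were the fibroblast genes Gsn, at 828 CPM in members, 2794 CPM in the other CD8 T cells and 16350 CPM in fibroblasts (-1.75), Sparcl1 (-3.02), Ccl11 (-2.65), Smoc2 (-2.22), Abca8a (-2.41), Col3a1 (-1.89) and Il11ra1 (-1.78). With cells of over 10 Dcn and Gsn UMIs left out, which left 301 members and 70 other cells, Ccl11 stood at 1.103 and Smoc2 at 1.82. The summed level of the 6 fibroblast markers was 1716 CPM in members and 4672 CPM in the other CD8 T cells, with all 6 detected in both. With C1q at 0, which left 96 members and 27 other CD8 T cells, Gsn stood at 1.04 and Sparcl1 and Il11ra1 at 0.19. The part of this RNA in the differences was not tested beyond these filters. The other negative genes were Marcksl1, Il6, Il1b, Dusp10, Maff, H2-DMb1, Ehd1 and Rrad, from -2.17 to -1.73. Of these, Marcksl1 turned to 0.0825 with at least 2 CD8 UMIs, and Il6 turned to 0.45 and H2-DMb1 to 0.0899 with C1q at 0. Il17a had no UMI in members and 12 in the other CD8 T cells. There the gamma delta T cell list, which holds Il17a, had 17 UMIs, with a median of 0 CPM per cell and 7051 CPM in the highest cell. The Il17a UMIs therefore need not describe the group.

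**Figure D2:**
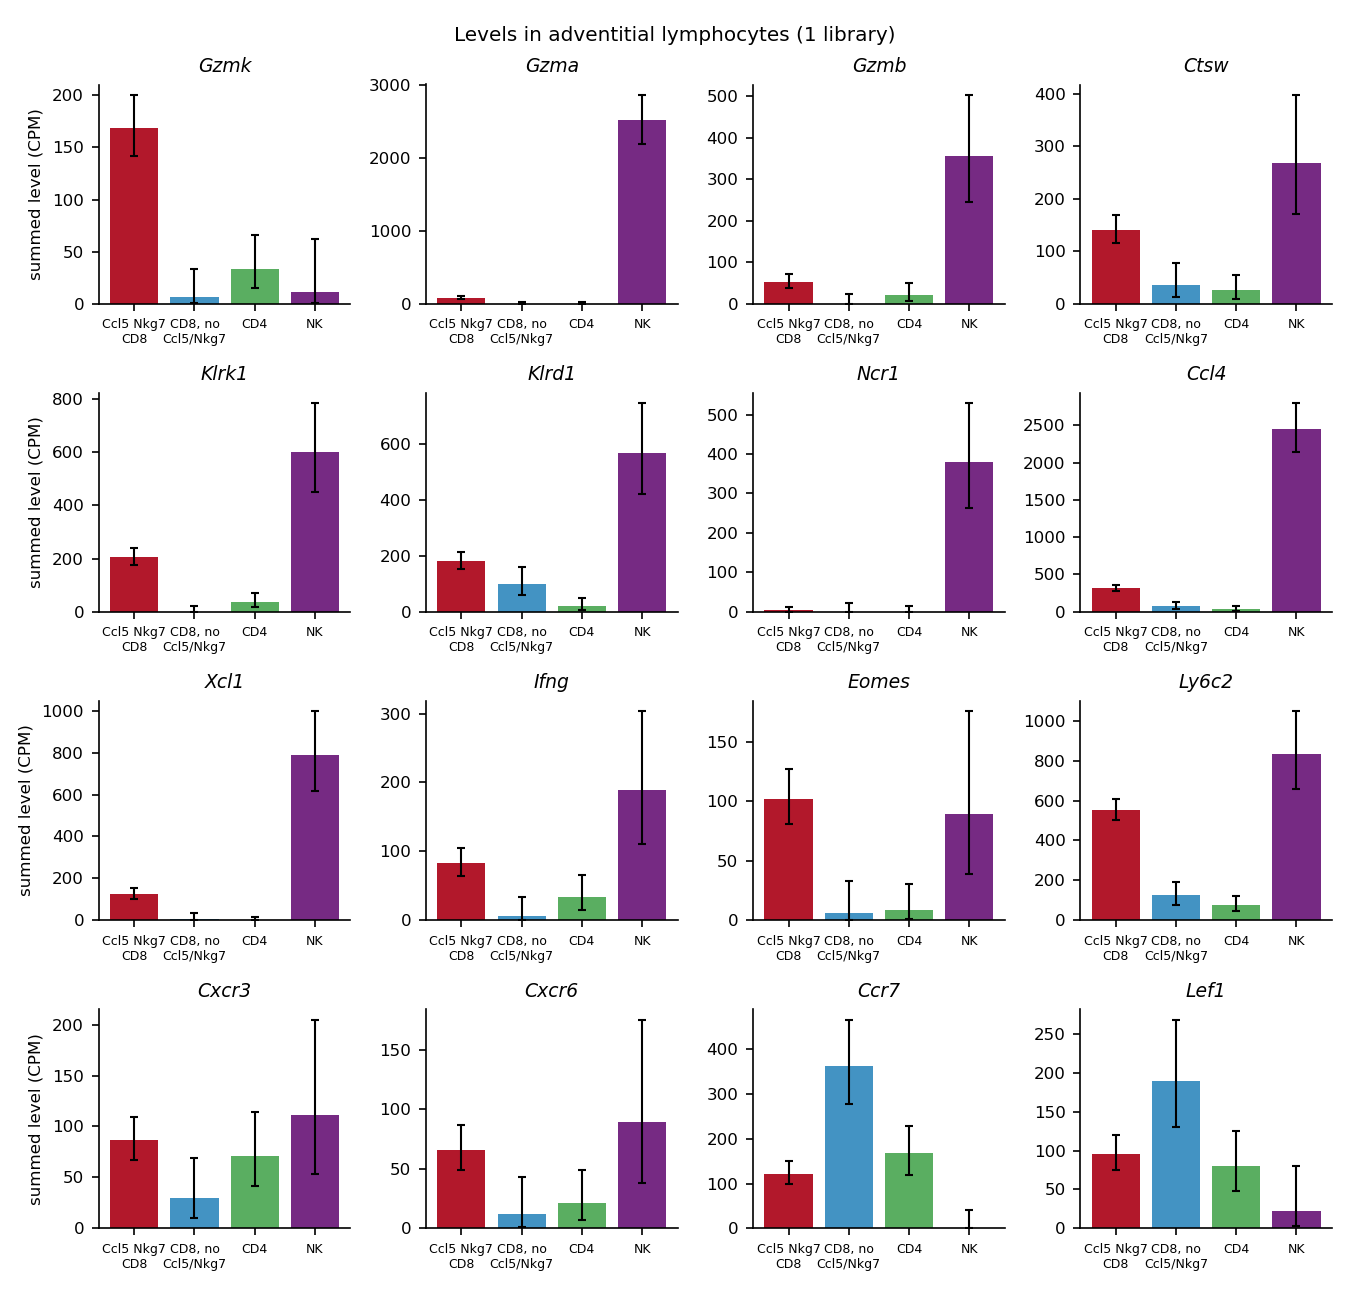
Summed level in CPM (y axes, linear, each from 0) of 16 genes in members (red), CD8 T cells without Ccl5 and Nkg7 (blue), CD4 T cells (green) and natural killer cells (purple) of the adventitial library, with 95% Poisson intervals. Gzmk stood at 169 CPM in members against 11.1 CPM in natural killer cells, while Gzma stood at 77.6 CPM against 2516 CPM.

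Against natural killer cells, the members had more Gzmk and lymph node genes and less Gzma, chemokine and Ly49 receptor RNA. Of 3223 genes tested 275 were at least 2-fold higher in members (8.53%) and 266 at least 2-fold lower (8.25%), with a median of -0.09. With totals taken without ribosomal and mitochondrial genes the counts were 419 higher and 145 lower, so more genes stood higher in members. The log2 factor of that scaling, the same for every gene, was -0.24. Ribosomal protein genes took 31.5% of UMIs in members and 20.2% in natural killer cells, and haemoglobin took 0.859% in members and 3.68% in natural killer cells. Ccl5 itself was nearly level, at 11990 CPM in members and 13320 CPM in natural killer cells, both of which had been chosen on it.

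Gzmk and Gzma, 2 granzyme genes that lie near each other on chromosome 13 (Gzma at 113093825 to 113100981), went opposite ways. Gzmk was at 169 CPM in members against 11.1 CPM (log2 ratio 3.93, 1.42 to 9.24) and Gzma at 77.6 CPM against 2516 CPM (-5.02, -5.45 to -4.61). Gzmb was at 52.2 CPM against 356 CPM (-2.77, -3.47 to -2.06). Of 12 granule genes 2 were higher and 4 lower, with a median of -0.57; the second higher gene was Cst7 (2.18) and the other lower genes were Serpinb9 (-2.39) and Serpinb6b (-2.29). All 4 cytokine genes tested were lower: Ccl4 at 319 CPM against 2450 CPM (-2.94), Ccl3 (-3.10), Xcl1 at 125 CPM against 791 CPM (-2.66) and Ifng at 82.7 CPM against 189 CPM (-1.19). Their median was -2.80.

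Receptor genes of the natural killer gene complex were lower as a rule but in a different mix. Klrk1 was at 207 CPM in members against 601 CPM (-1.54, -1.99 to -1.06) and Klrd1 at 181 CPM against 568 CPM (-1.65). The signalling adaptors Tyrobp (204 CPM against 2683 CPM, -3.72) and Fcer1g (192 CPM against 1871 CPM, -3.28) were lower as well. In members these 2 adaptors were below their level in B cells, which was 343 CPM for Tyrobp and 315 CPM for Fcer1g. Ly6c2 was at 551 CPM in members against 835 CPM (-0.60, -0.96 to -0.23), and Eomes was at 102 CPM in members and 89.1 CPM in natural killer cells (0.19, -0.86 to 1.45). Of 6 listed natural killer receptors 5 were lower and none higher (median -1.47), and of 7 natural killer markers 5 were lower.

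The file held 26 Klr genes, of which 19 had a UMI in members and 18 in natural killer cells, and 24 of them lie on chromosome 6 between the start of Klrb1a (128609227) and the end of Klra2 (131247362). A neighbouring block of Klre1, Klrd1, Klrk1, Klrc2 and Klrc1 (129577905 to 129678973, with Klrc3 between) gave 438 of the 515 Klr UMIs of members (85.0%), against 41.6% of 418 in natural killer cells. The Ly49 genes Klra9, Klra8, Klra7 and Klra3 were lower in members, with Klra9 at 16.5 CPM against 612 CPM in natural killer cells, Klra8 at 1.27 CPM against 345 CPM, Klra7 at 22.9 CPM against 167 CPM and Klra3 at 1.27 CPM against 156 CPM. Klra4 had no UMI in members and stood at 212 CPM in natural killer cells, whereas Klra6 had 11 UMIs in members and none in natural killer cells, with 785960 UMIs in all in members and 89814 in natural killer cells. Klrb1c, which helped to choose the natural killer cells and so adds to their total, was at 3.82 CPM in members against 646 CPM. Any Klr UMI was found in 185 members (59.9%). The Klra and Klrc genes are close copies of each other, as are Ly6c2 and Ly6c1, so the split of reads between them is uncertain.

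**Figure D3:**
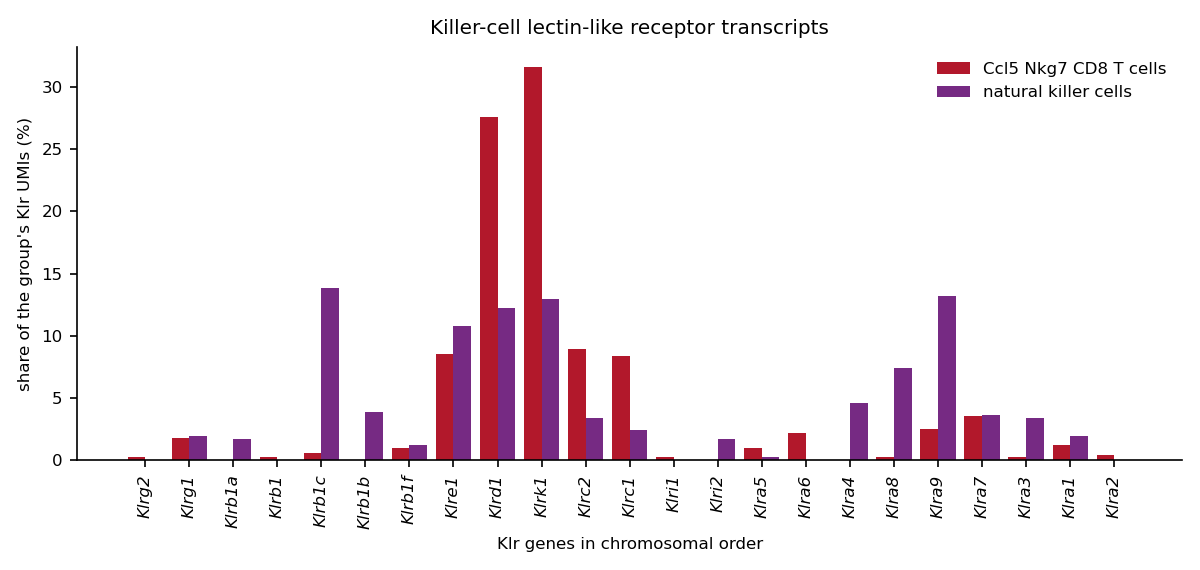
Share of each group's Klr UMIs (y axis, percent) for the Klr genes with a UMI in either group, in chromosomal order, in members (red) and natural killer cells (purple). Members had 85.0% of their Klr UMIs in the block from Klre1 to Klrc1, against 41.6% in natural killer cells.

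T cell genes went the other way, and the natural killer cells had been chosen to lack CD3. Of 11 lymph node genes 6 were higher and none lower (median 1.11), among them Ccr7, with 96 UMIs against 0, at least 3.66-fold higher, S1pr1, the exit receptor of lymph nodes (2.14), Lef1, with 75 UMIs against 2, Tcf7 (1.48) and Il7r (1.11). Of 13 receptor signalling genes 7 were higher (median 1.14), as were 4 of 6 T cell markers and 1 of 2 CD4 T cell markers. No interferon gene out of 4 and no MHC class I gene out of 8 was past 2-fold, and 1 of 4 cell cycle genes was higher. Tissue residency genes were lower in 3 of 5, trafficking genes higher in 1 and lower in 2 of 10, factors higher in 1 and lower in 2 of 10 and inhibitory genes higher in 1 of 5. The S100 list was lower in 3 of 13, immediate early genes in 1 of 10, erythroid genes in 5 of 5 and fibroblast markers in 2 of 3. Per cell, summed erythroid genes had a median of 2443 CPM in natural killer cells and 2082 CPM in members. The highest cells stood at 560100 CPM and 609000 CPM. Summed fibroblast markers had medians of 1052 CPM and 739.9 CPM, with highest cells at 50280 CPM and 30260 CPM. The group sums can thus rest on few cells. Other named genes were Gm8369, Klk8, Mfap5, Gramd3, Arhgap31, Plcxd2, Psip1, Cd6 and Kcnn4, higher with 1 to 3 UMIs in natural killer cells, and Irf8 (-4.53) and Atp1b1 (16.5 CPM against 200.4 CPM), lower. With C1q at 0, which left 96 members and 12 natural killer cells, Plcxd2 turned to -0.72, Psip1 to -0.64 and Kcnn4 to -0.22.

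Against CD4 T cells, which share the T cell genes but not the CD8 lineage, the cytotoxic genes again stood apart. Of 3722 genes tested 154 were at least 2-fold higher in members (4.14%) and 182 at least 2-fold lower (4.89%), with a median of -0.10. Granule genes were higher in 8 of 12 and natural killer receptors in 4 of 5, with none lower in either and medians of 1.30 and 2.46. Gzmk was at 169 CPM in members against 33.6 CPM (2.33, 1.31 to 3.57), Klrd1 at 181 CPM against 21.0 CPM (3.11) and Ly6c2 at 551 CPM against 75.6 CPM (2.87, 2.19 to 3.63). Eomes had 80 UMIs against 2 (interval of the log2 ratio 1.70 to 6.67), Xcl1 98 against 0, at least 9.90-fold higher, and Ccl4 251 against 9 (3.08). The members also had more Bcl2 (1.54), Runx3, a factor of the CD8 lineage (1.53), and Il7r (1.02).

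Inhibitory genes did not stand out against CD4 T cells. Pdcd1 was at 47.1 CPM in members and 46.2 CPM in CD4 T cells (0.03, -0.97 to 1.15) and Tox at 85.2 CPM and 71.4 CPM (0.26, -0.53 to 1.12), while Lag3 (-1.80) and Ctla4 (-1.17) were lower. Among the named genes lower in members were Tnfrsf4, which encodes OX40, at 25.4 CPM against 432 CPM (-4.09), Izumo1r, the folate receptor 4 (-3.11), Nrp1 (-2.53) and Sostdc1, with 2 UMIs against 43 (-6.15). Icos was lower as well (-1.45), while Cd28 was at 416 CPM in members against 479 CPM (-0.20) and Cd27 at 327 CPM against 290 CPM (0.17). Lymph node genes were split, with Il7r higher and S1pr1 (-1.07) and Igfbp4 (-1.09) lower among 12. Cytokine genes were higher in 4 of 5 (median 1.70), residency genes in 1 of 5 (Cxcr6, 1.66) and trafficking genes in 1 of 10 (Selplg, 1.20), with Itgb1 lower (-1.04). Factors were higher in 3 and lower in 1 of 10 (Ly6a, -1.32), and receptor signalling genes higher in 1 and lower in 2 of 13. No immediate early, cell cycle, S100 or MHC class I gene was past 2-fold, while 1 of 6 interferon genes, 2 of 9 T cell markers, 2 of 4 fibroblast markers and 1 of 3 endothelial markers were lower. Further named genes were St3gal6, Grap2, Tmem192 and Klrc1, with 2 UMIs each in CD4 T cells, and Gzma, with 0, all higher, and Kdr, Hif1a, Lyz1, Depp1 and Ramp3, lower from -2.95 to -2.31. The 3 comparisons share the members, so their counts are not independent of each other.

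Detection per cell was set beside B cells and fibroblasts of the same library. After thinning each cell to 1000 UMIs, which kept all 309 members, Gzmk was found in 16.8% of members (12.8 to 21.5; 28.2% before thinning), against 0.251% of B cells and 0.107% of fibroblasts. Klrk1 was found in 15.5% of members, against 0.376% of B cells and 0.160% of fibroblasts, and Klrd1 in 13.6%, against 0.251% of B cells and 0.373% of fibroblasts. Ccl4 had a higher background, with 16.2% of members against 4.20% of B cells and 4.53% of fibroblasts. Eomes, Xcl1, Ifng, Cxcr3, Cxcr6, Tox, Pdcd1, Gzmb and Gzma were found in 1.94% to 10.7% of members and in at most 1.06% of B cells and fibroblasts. In natural killer cells the thinned share was 34.1% for Klrk1, 41.5% for Gzma and 2.44% for Gzmk.

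**Figure D4:**
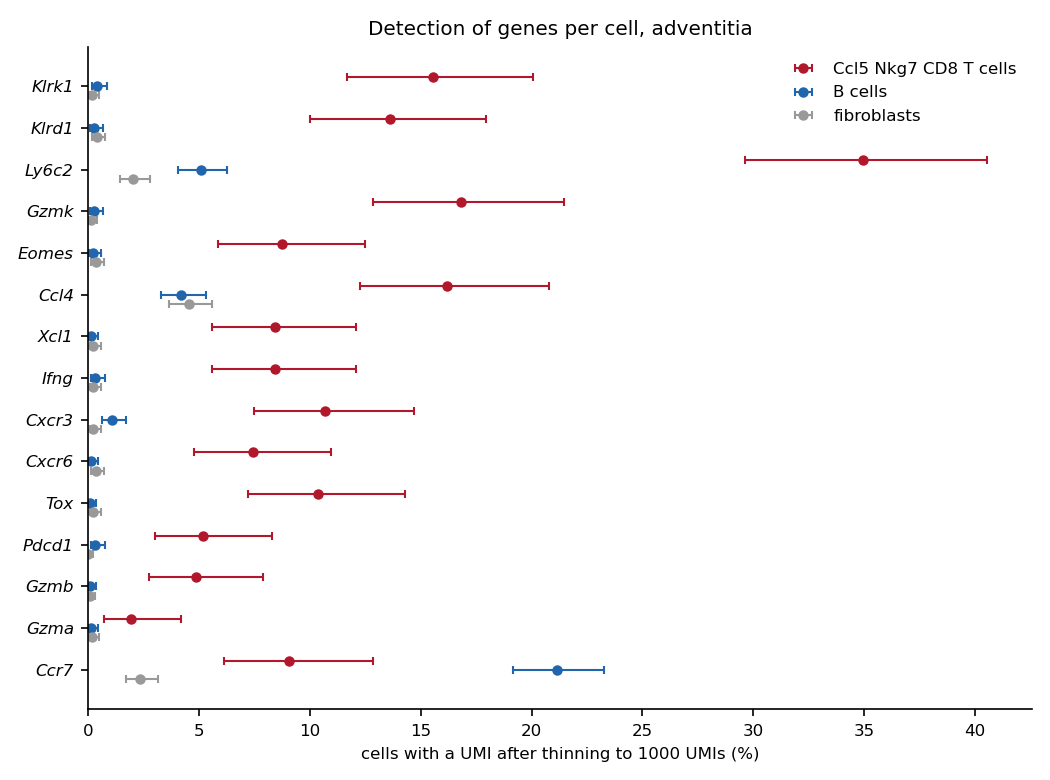
Percent of cells with at least 1 UMI of a gene after thinning to 1000 UMIs per cell (x axis), with 95% Clopper-Pearson intervals, in members (red), B cells (blue) and fibroblasts (grey). The genes from Klrk1 down to Gzma lie higher in members than in either other group, from 1.94% for Gzma to 35.0% for Ly6c2.

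RNA of other cells was present in members at shares near those of B cells. Before thinning, Dcn of fibroblasts was found in 67.3% of members and 69.9% of B cells, and Lyz2 of macrophages in 86.7% of members and 84.7% of B cells. The plasma cell gene Jchain was found in 66.7% of members and 70.0% of B cells, but at 436 CPM against 8890 CPM. Summed plasma cell markers reached 178400 CPM in the highest cell of the B cell group. The share of B cells with Jchain is therefore not a background value. Against CD8 T cells without Ccl5 and Nkg7, none of the markers of T cells (9 tested), CD4 T cells (2), type 2 innate lymphoid cells (2), plasma cells (2), macrophages (4), neutrophils (3) or erythroid cells (5) was past 2-fold. Natural killer markers were higher in 2 of 5 (Eomes and Klre1), B cell markers lower in 1 of 2 (Ebf1) and fibroblast markers lower in 3 of 3. Thymocyte, gamma delta T cell and endothelial markers had too few counts.

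The genes that varied most among members were haemoglobin genes, further genes of other cell types, and also Malat1, Actb, Gzma and Ccl4. Over 2910 genes with at least 30 UMIs, the variance relative to that expected from counting at each cell's depth had a median of 1.06, and 114 genes were over 2. The 15 largest values, Ccl5, Nkg7 and the other genes of the rule left out, were those of Hbb-bs, Hba-a1, Hba-a2, Hbb-bt, Gsn, Cxcl13, Malat1, Actb, Dcn, Retnla, Gzma, Cd74, H2-Ab1, Lyz2 and Ccl4. Haemoglobin made up 60.6% of the UMIs of 1 member and over 10% in 3, against a median of 0.208%. Of 113 Cxcl13 UMIs 71 were in 1 member.

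Gzma had the largest relative variance of the effector genes among these, at 9.18. Its 61 UMIs lay in 13 members, with 23 in the highest and 95.1% in 10 cells. Ccl4 was at 7.29, with up to 19 UMIs in a cell and 39.4% of its UMIs in 10 cells. Ly6c2 (3.31), Xcl1 (3.19) and Klrk1 (2.73) came next among the effector genes named here, while Gzmk (1.60) and Eomes (1.498) had lower values. This relative variance covers all members, also those without a UMI, and depends on the level of a gene. It therefore does not rank how evenly the cells that have a gene share it.

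Members with a Gzmk UMI differed from members without in Eomes, Ly6c2 and the lymph node genes. The 87 members with Gzmk had a median depth of 2247 UMIs, against 2208.5 in the 222 without. Eomes was at 218 CPM with Gzmk against 55.2 CPM without (log2 ratio 1.98), and was found in 36.8% of cells against 11.3%. Tox was at 156 CPM against 57.0 CPM (1.45), Cd27, a costimulatory receptor, at 472 CPM against 269 CPM, and Nr4a2 at 441 CPM against 249 CPM. Lower with Gzmk were Ccr7, at 26.7 CPM against 160 CPM (-2.58), Lef1, at 35.6 CPM against 119 CPM, and Ly6c2, at 254 CPM against 670 CPM (-1.40). Klrk1 (0.31) and Klrd1 did not differ beyond counting error, as their intervals reached both sides of 0, and so did Pdcd1, at 71.3 CPM against 37.4 CPM.

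Members with a Ly6c2 UMI showed the opposite pattern for Gzmk and Eomes and had more of the lectin receptors and of some lymph node genes. The 151 members with Ly6c2 had a median depth of 2289, against 2111.5 in the 158 without. Klrk1 was at 263 CPM with Ly6c2 against 152 CPM without (0.79), Klrd1 at 230 CPM against 132 CPM and Klrc2 at 81.7 CPM against 35.5 CPM. Bcl2 was at 478 CPM against 304 CPM, S1pr1 at 143 CPM against 53.2 CPM (1.43) and Il7r at 332 CPM against 198 CPM. Lower with Ly6c2 were Gzmk, at 81.7 CPM against 256 CPM (-1.65), Eomes, at 56.2 CPM against 147 CPM, Xcl1, at 66.4 CPM against 183 CPM, and Tox, at 61.3 CPM against 109 CPM.

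Taken as 4 classes of cells, 27 members (8.74%) had UMIs of both Gzmk and Ly6c2, 60 (19.4%) of Gzmk alone, 124 (40.1%) of Ly6c2 alone and 98 (31.7%) of neither. Eomes was found in 26 of the 60 cells with Gzmk alone and 12 of the 124 with Ly6c2 alone, and Klrk1 in 13 of the 60 and 51 of the 124. Ccr7 was found in 1 of the 60 and 34 of the 124. These classes rest on detection, so a cell without a UMI may still hold the transcript. Among the 284 members with at least 4 UMIs of Ccl5 and Nkg7, an alternative chosen after seeing the data, Eomes was at 218 CPM with Gzmk against 62.9 CPM without, Ly6c2 at 254 CPM against 749 CPM and Ccr7 at 26.7 CPM against 126 CPM. In the same 284 members Lef1 was at 103 CPM with Ly6c2 against 35.5 CPM without and Ccr7 at 121 CPM against 65.1 CPM. Dapl1 stood at 63.2 CPM with Ly6c2 against 53.3 CPM.

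**Figure D5:**
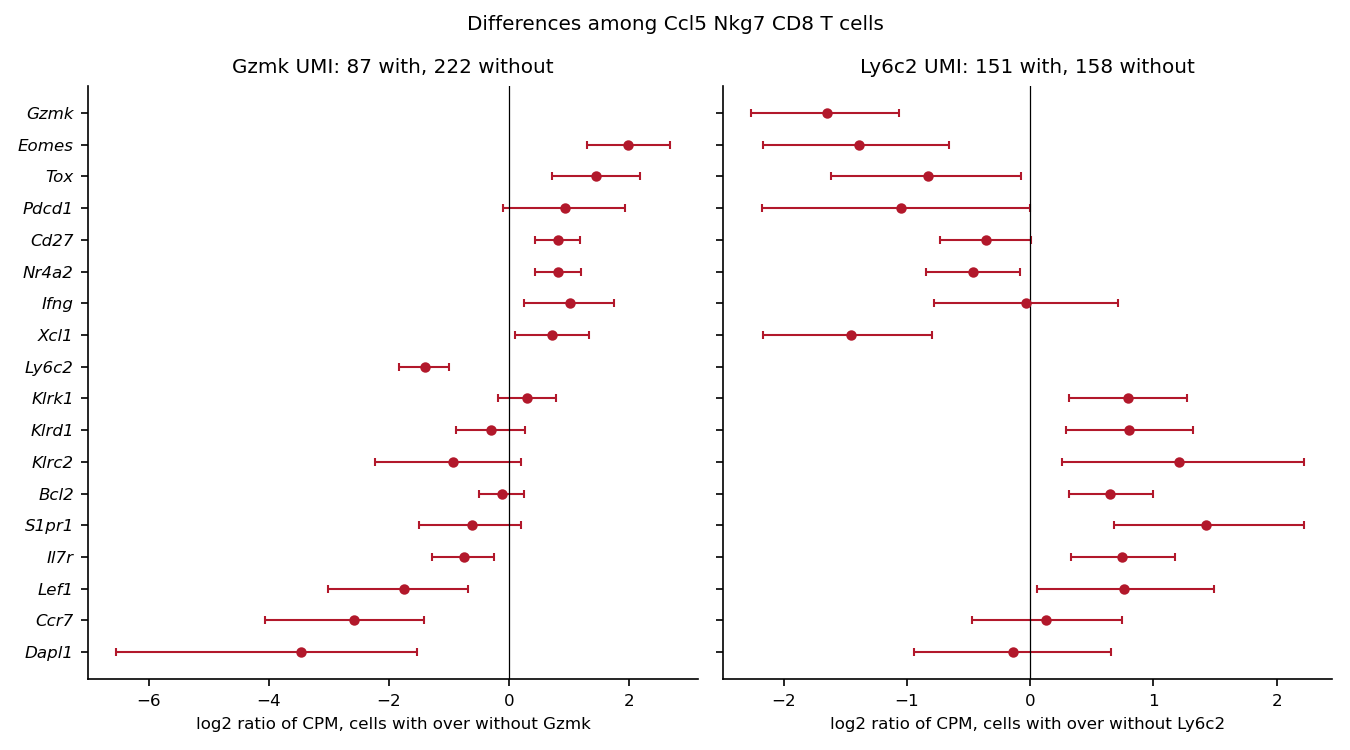
Log2 ratio of CPM (x axes, with 95% intervals) between members with and without a Gzmk UMI (left, 87 and 222 cells) and with and without a Ly6c2 UMI (right, 151 and 158 cells), for the genes on the y axis. Eomes lies at 1.98 with Gzmk, whereas Gzmk lies at -1.65 with Ly6c2.

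Smaller classes of members carried other genes. The 61 members with Ccr7 were deeper, with a median of 2759 UMIs against 2103 in the 248 without, and had more Dapl1 (195 CPM against 36.3 CPM), Lef1 (145 CPM against 80.8 CPM) and Il7r (412 CPM against 221 CPM) and less Gzmk (22.3 CPM against 213 CPM) and Xcl1 (27.8 CPM against 153 CPM). Ly6c2 was higher in members with Ccr7 too, at 757 CPM against 490 CPM. The 31 members with Pdcd1 had 298 CPM of Gzmk against 154 CPM in the 278 without, 428 CPM of S100a4 against 185 CPM and 179 CPM of Ly6c2 against 596 CPM. The interval of the log2 ratio of Gzmk was 0.26 to 1.59, but that of Pdcd1 in the Gzmk split was -0.11 to 1.94. Tox was at 71.4 CPM with Pdcd1 against 86.9 CPM without. The 25 members with Gzmb had 870 CPM of Ly6c2 against 520.2 CPM in the 284 without and 145 CPM of Klre1 against 47.4 CPM.

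Lectin receptor genes were found together in the same members. The 28 members with Klre1, a receptor subunit of natural killer cells, had 428 CPM of Klrk1 against 183 CPM in the 281 without, 156 CPM of Klrc2 against 48.0 CPM, 130 CPM of Klrc1 against 46.6 CPM and 920 CPM of Ly6c2 against 511 CPM. The 50 members with Cd8a and no Cd8b1 UMI had more Klre1 (121 CPM against 43.8 CPM), Klrc1 (113 CPM against 43.8 CPM), Rgs1 (162 CPM against 69.5 CPM) and Ccl4 (631 CPM against 261 CPM) than the 259 with Cd8b1.

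The same cuts found few such cells in the intima. They kept 309 of 430 CD8 T cells in the adventitia (3.64% of its 8497 cells), against 4 of 7 in descending library a (0.197% of 2030), 7 of 9 in descending library b (0.328% of 2132) and 12 of 129 in the young arch (0.553% of 2172). Members thus made up 71.9% of adventitial CD8 T cells, against 9.30% (4.90 to 15.7) of those of the arch. The libraries differ in age, layer, region and depth at the same time, so these cannot be told apart. The thymocyte gene Rag1 was found in 0 of the 73 adventitial CD8 T cells without Ccl5 and Nkg7 and in 36 of the 104 of the arch.

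Of the 309 adventitial members 48.9% had a Ly6c2 UMI, against 3 of 4 cells of descending library a, 5 of 7 of library b and 0 of 12 of the arch. Gzmk had 133 UMIs in the adventitial members, none in the descending cells and 1 in the arch cells. Klrk1 was found in 1 of 4 cells of library a, 4 of 7 of library b and 1 of 12 of the arch. Gzmb had 13 UMIs in 3 of the 12 arch cells. With so few intimal cells no level was compared.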

How the data were processed

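Single cells were profiled with 10x Chromium 3' v2 chemistry, per the labels' protocols. The deposited files hold raw UMI counts per gene and cell that the authors made with Cell Ranger 2.1.2 on mm10, per the submitters' processing notes. Of 27998 genes, 27645 had a symbol in the gene name table used with the reference, coordinates came from GENCODE M21 on GRCm38, and 12 of 261 genes in 28 lists were not matched and were not analysed here. Cells were kept from 200 detected genes upwards and up to a mitochondrial share of 10%. Ambient RNA was not removed. The automatic doublet threshold of Scrublet called 2 adventitial cells and so was not used; a removal of the 593 highest scores was tried as an alternative. UMIs were summed per group of cells and scaled to CPM. Genes with at least 30 UMIs over both groups were compared by their ratio, with exact conditional intervals, and 2-fold was the size used. With 1 adventitial library no test was run. Where a gene had 0 UMIs in a group, 3 counts stood in for it and the fold is a lower bound. Adventitial cells had a median of 2551 UMIs, against 4909.5 to 7037 in the intimal libraries.

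The named genes were the 15 with the largest ratio in each direction against CD8 T cells without Ccl5 and Nkg7, the 10 in each direction against natural killer and CD4 T cells, the 15 with the largest dispersion and the listed genes. The members and lists were chosen with earlier results of these data known. Alternatives covered each cut, the cell filters, the scaling, the count minimum and 2 settings added after seeing the data. Python 3.11.15, numpy 2.4.6, scipy 1.17.1, pandas 2.3.3, scanpy 1.11.5 and matplotlib 3.10.9 were used.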

Additional observations from a re-analysis of the deposited data

How the results depend on the processing

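No paired analysis was possible because the adventitia has 1 library. The number of members, 309, became 194 with at least 2 Cd8a and Cd8b1 UMIs, 96 with C1q at 0, 199 at 5% mitochondrial UMIs and 16 without cells of over 1 haemoglobin UMI, where too few other cells were left to compare. Their percent of cells, 3.64, became 4.20 at a cut of 1 Ccl5 and Nkg7 UMI, 2.28 with 2 CD8 UMIs, 2.79 with 3 CD3 UMIs, 1.13 with C1q at 0 and 4.42 with the haemoglobin filter. Their percent of CD8 T cells, 71.9, became 83.02 at a cut of 1 and 66.0 at a cut of 4. Against CD8 T cells without Ccl5 and Nkg7, 278 genes were higher and 121 lower. The lower count was 77 with 2 CD8 UMIs, and the counts were 128 and 27 with C1q at 0, 846 and 550 at a minimum of 10 UMIs per gene and 89 and 26 at 60. Against CD4 T cells, 154 higher and 182 lower became 570 and 745 at a minimum of 10 and 54 and 61 at 60. Against natural killer cells, 275 higher and 266 lower became 167 and 169 with 2 CD8 UMIs, 94 and 86 with C1q at 0, 419 and 145 with totals without ribosomal and mitochondrial genes, 546 and 1161 at a minimum of 10 and 106 and 87 at 60.

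Some log2 ratios changed sign. Marcksl1 was 0.0825 with 2 CD8 UMIs. With C1q at 0, which left 96 members and 27 other CD8 T cells, Klrc2 was -0.0171, Snrnp40 and Fgl2 -0.13, Nudt5 -0.26, Fnbp1 -0.55, Sparcl1 and Il11ra1 0.19, Il6 0.45, H2-DMb1 0.0899 and Gsn 1.04, and against 12 natural killer cells Plcxd2 was -0.72, Psip1 -0.64 and Kcnn4 -0.22. Without cells of over 10 Dcn and Gsn UMIs, Ccl11 was 1.103 and Smoc2 1.82. Among members with at least 4 Ccl5 and Nkg7 UMIs, Dapl1 by Ly6c2 was 0.25 and Bcl2 by Ccr7 0.0347. The causes were not tested. Of 830 ratios of named genes under the alternatives 814 kept their sign, and 160 of 204 shares of cells stayed within their interval. Genes with few UMIs and the 41 natural killer cells limit the precision.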
